A study of Danio rerio with 4 samples.

Results

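The muscle miRNAs described here are the 9 rows of the miR-1, miR-206 and miR-133 families, taken by name from the 372 miRNAs of the deposited tables. They are dre-miR-1, dre-miR-206-3p, dre-miR-206-5p, dre-miR-133a-3p, dre-miR-133a-5p, dre-miR-133b-3p, dre-miR-133b-5p, dre-miR-133c-3p and dre-miR-133c-5p. Of the 9 rows, 6 belong to miR-133, 2 to miR-206 and 1 to miR-1. The suffixes 5p and 3p name the 2 arms of a precursor hairpin, and the prefix dre (Danio rerio) is left out below. Small RNA was sequenced from zebrafish embryos of genotype Tg(sox10:eGFP,mRFP), in which the sox10 promoter labels neural crest cells (NCC) with fluorescent proteins. All 4 groups share this genotype. At 16 and 28 h post-fertilization (hpf), cells with GFP, called NCC, were sorted from those without it, called non-NCC, and each of the 4 groups is 1 library without a replicate. The sox10 promoter is also active outside the crest, for example in the otic vesicle, and non-NCC is a mixture of the remaining cells of the embryo. The labels name no other agent or allele. The tables list miRNAs only, so the mRNA markers of crest and muscle could not be read from them.

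miR-1, miR-206 and miR-133 are known as muscle miRNAs because vertebrate skeletal muscle makes them under the control of myogenic transcription factors, and because the heart makes miR-1 and miR-133. miR-1 and miR-206 are close relatives that share their seed, the stretch at the 5′ end that selects targets, whereas miR-133 has another seed. Members of both groups are encoded side by side and are often transcribed together. By the RefSeq genes of GRCz12tu, the 9 rows trace to 8 precursor genes in 4 neighbouring pairs. mir133a-1 lies beside mir1-2, mir133a-2 near mir1-1, mir133b beside mir206-1 and mir133c beside mir206-2. No annotated gene starts inside these pairs, except for 1 gene between mir133a-2 and mir1-1. The 3p arms of miR-133a, miR-133b and miR-133c are nearly identical and differ at a few bases away from the seed.

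The results turn on miR-133a-3p, and the oligonucleotides the study ordered to measure it show the part of its sequence that is at hand. Both come from the oligonucleotide list of the study. Capitals mark the bases that remain after the stretch shared with the corresponding oligonucleotides for the other 2 miRNAs measured there.
miR-133a forward oligo: cacgcatTTGGTCCCCTTCA
miR-133a stem-loop oligo: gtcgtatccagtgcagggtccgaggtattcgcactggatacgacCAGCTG
The 13 capital bases of the forward oligonucleotide read the miRNA from its seed onwards. The 6 capital bases of the stem-loop oligonucleotide pair with the 3′ end of the miRNA during reverse transcription.

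The deposited values are read counts divided by a size factor per library (normalized counts), and all of them could be turned back into whole reads. The depth ranged from 6502 reads in NCC at 28 hpf to 140132389 reads in non-NCC at 16 hpf, and non-NCC was 59.9 times as deep as NCC at 16 hpf and 169 times at 28 hpf. At 16 hpf, one read stands for 7.72 (NCC) and 0.130 (non-NCC) normalized counts, and at 28 hpf for 11.4 and 0.0877. Levels are also given as RPM, the reads of a row per 1000000 miRNA reads of the library, which can be set side by side for all 4 libraries. miR-430, the family that is abundant in the early zebrafish embryo, took 91.7 to 92.0% of the reads at 16 hpf and 66.7 to 72.8% at 28 hpf, so that an RPM at 28 hpf is measured against less miR-430. Where a row had no read, 3 reads were taken as the most it could hold unseen, which at 16 hpf is 1.28 RPM (NCC) and 0.0214 RPM (non-NCC), and at 28 hpf 461 and 2.73 RPM. In sorted populations, fewer cells of a type and less RNA per cell cannot be told apart. Intervals are 95% Clopper-Pearson intervals. They and the tests compare single libraries and cover counting error only, since each group is 1 library. PCR copies were not told apart and count as separate reads. The intervals can thus be too narrow, and the p-values too small, even for counting error.

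At 16 hpf, the muscle miRNAs together made up about the same share of both libraries, but the members differed. The 9 rows held 83 NCC reads (35.5 RPM, interval 28.2 to 44.0) and 4967 non-NCC reads (35.4 RPM, 34.5 to 36.4). In normalized counts the sums were 641 and 643, with a log2 ratio of NCC to non-NCC of -0.01 (-0.34 to 0.31). With the reads of each member divided by its precursor genes, this log2 ratio was -0.32. In NCC, 77.1% (66.6 to 85.6) of these reads were miR-133a-3p and 21.7% (13.4 to 32.1) were miR-206-3p. In non-NCC, miR-206-3p led with 58.7% (57.3 to 60.0) and miR-133a-3p held 13.6% (12.6 to 14.6). The order of miR-133a-3p and miR-206-3p was thus exchanged between the populations. Divided by precursor genes, miR-133a-3p kept 337 non-NCC reads, fewer than the 618 of miR-133b-3p and the 445 of miR-133c-3p. The percentages of the 9 rows were not recomputed in this way.

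**Figure D1:**
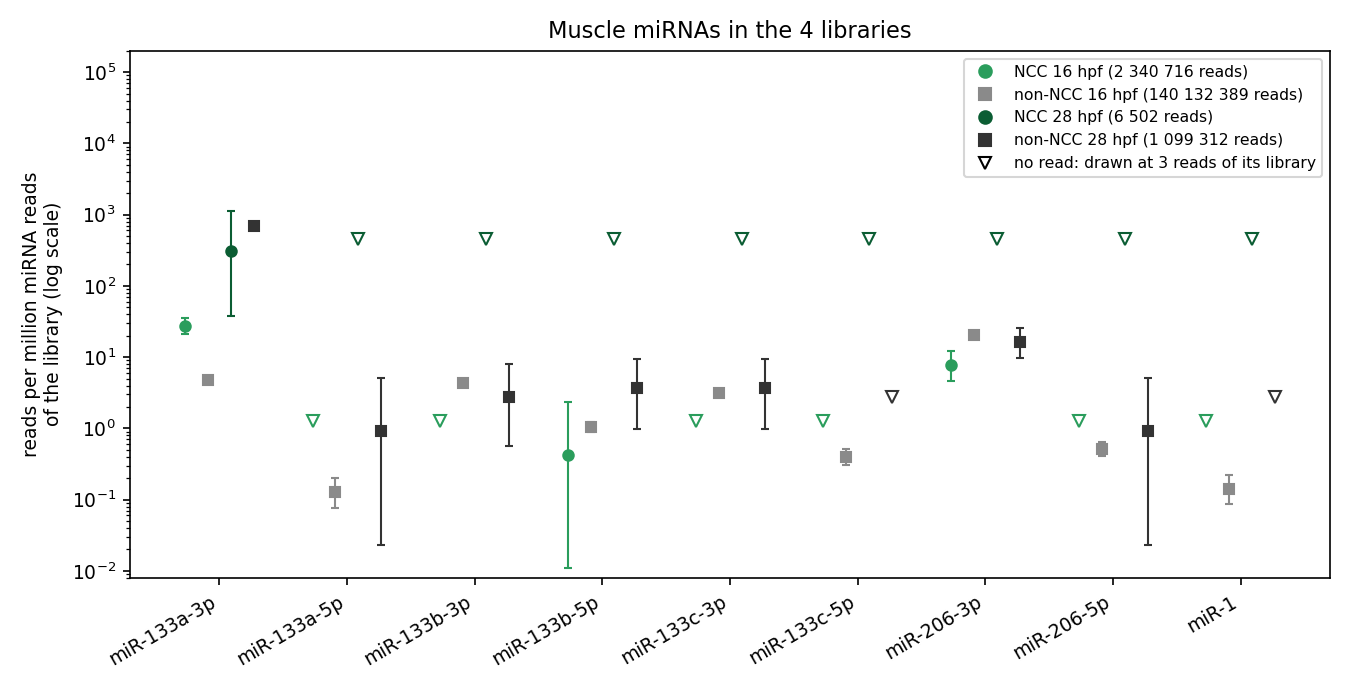
RPM (log scale) of each of the 9 muscle miRNAs in the 4 libraries, with 95% Clopper-Pearson intervals; open triangles mark rows without a read, drawn at 3 reads of their library. miR-133a-3p stood at 27.3 (NCC) and 4.81 RPM (non-NCC) at 16 hpf, and at 690 RPM in non-NCC at 28 hpf, while the triangles of NCC at 28 hpf lie at 461 RPM, above nearly all measured values.

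miR-133a-3p, a main product of the miR-133 genes of muscle, had 64 reads (494 normalized counts, 27.3 RPM) in NCC and 674 reads (87.3 normalized counts, 4.81 RPM) in non-NCC at 16 hpf. NCC exceeded non-NCC 5.66-fold (log2 ratio 2.50, 2.11 to 2.87; exact binomial test, adjusted over all miRNAs of the stage, p = 2.25e-25). It was the 59th most abundant of 226 miRNAs with reads in NCC and the 104th of 339 in non-NCC. Its near-identical paralogs lay the other way. The 618 reads of miR-133b-3p (80.1 normalized counts, 4.41 RPM) and the 445 reads of miR-133c-3p (57.6 normalized counts, 3.18 RPM) were all from non-NCC. At an equal level, 10.4 and 7.47 NCC reads would have been counted for them. Against the limit of 3 NCC reads, miR-133b-3p was at least 3.46-fold lower and miR-133c-3p at least 2.49-fold lower in NCC (exact binomial test, adjusted p = 0.000334 and 0.00424, respectively). The 95% interval, which allows slightly more than 3 unseen reads, reached to 2.80-fold and 2.02-fold lower.

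The paralog mix of the miR-133 3p reads does not depend on the scaling of the libraries. All 64 miR-133 3p reads of NCC at 16 hpf fell on miR-133a-3p (100%, 94.4 to 100). In non-NCC, 38.8% (36.5 to 41.1) of 1737 reads did, with 35.6% (33.3 to 37.9) on miR-133b-3p and 25.6% (23.6 to 27.7) on miR-133c-3p. The intervals of the miR-133a-3p share in NCC and non-NCC do not overlap. The miR-133a-3p count was even in all 4 libraries, and this miRNA has 2 precursor genes, as do miR-206 and miR-1. With the reads of each member divided by its precursor genes, the exact binomial test at 16 hpf gave an adjusted p of 3.65e-13 for miR-133a-3p. With its reads halved, the share was 100% (89.1 to 100) of 32 reads in NCC and 24.1% (21.9 to 26.4) of 1400 in non-NCC, still without overlap. Summed over the paralogs, miR-133 3p was 2.20-fold higher in NCC (log2 ratio 1.13, 0.75 to 1.49), and with the halved reads 1.36-fold (log2 ratio 0.45, -0.11 to 0.95). How reads that match more than 1 paralog were assigned is not given in the sources used here, and its part in the mix was not tested.

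**Figure D2:**
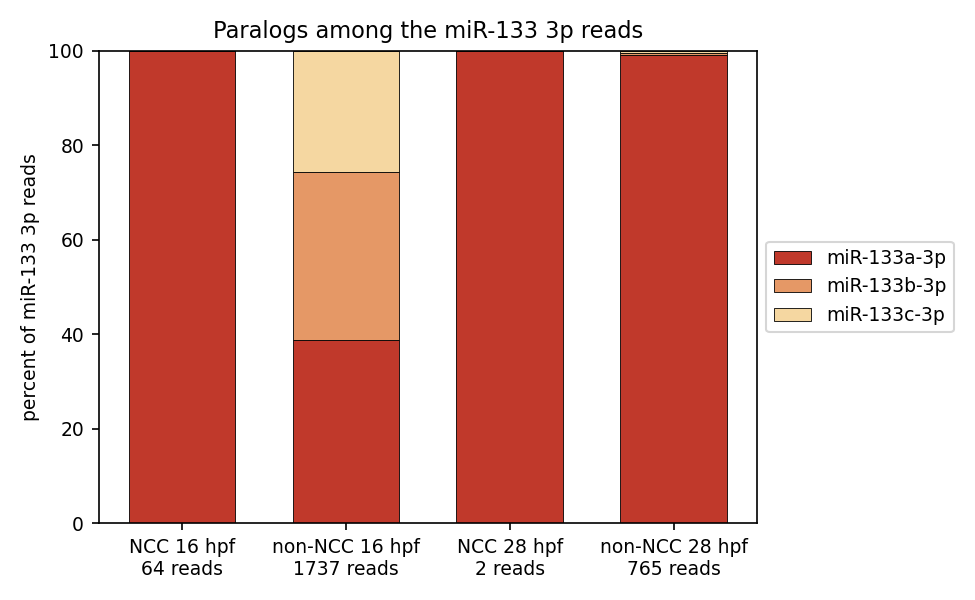
Percent of the miR-133 3p reads of each library that fell on miR-133a-3p, miR-133b-3p and miR-133c-3p, with the number of reads under each bar. The 3 paralogs shared the reads of non-NCC at 16 hpf (38.8, 35.6 and 25.6%), whereas miR-133a-3p held 100% of 64 NCC reads at 16 hpf and 99.1% of 765 non-NCC reads at 28 hpf.

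miR-206-3p, the product of the mir206 genes that fish and other vertebrates express in skeletal muscle, was the most abundant member in non-NCC at 16 hpf. It had 18 reads (139 normalized counts, 7.69 RPM) in NCC and 2914 reads (377 normalized counts, 20.8 RPM) in non-NCC, and was 2.72-fold lower in NCC (log2 ratio -1.44, -2.20 to -0.78; exact binomial test, adjusted p = 4.34e-06). Its counts are even too. With the reads of each member, but of no other miRNA, divided by its precursor genes, the exact binomial test gave an adjusted p of 0.00242. miR-1, which carries the same seed, was scarcely detected: it had 20 reads (0.143 RPM) in non-NCC and none in NCC, where 0.336 reads would have been counted at an equal level. miR-1 was 0.682% (0.417 to 1.05) of the reads that miR-1 and miR-206-3p held together in non-NCC.

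The 5p arms had few reads at 16 hpf. miR-133b-5p was the best covered of them, with 1 NCC read (0.427 RPM) and 149 non-NCC reads (1.06 RPM), and its log2 ratio of -1.32 (-6.64 to 1.18) rested on that read. miR-206-5p had 73 non-NCC reads, miR-133c-5p 56 and miR-133a-5p 18, and none had a read in NCC, where at most 1.22 would have been counted at an equal level. In non-NCC, the 3p arm held 97.6% (96.9 to 98.1) of the miR-206 reads, 97.4% (95.9 to 98.5) for miR-133a, 88.8% (85.7 to 91.4) for miR-133c and 80.6% (77.6 to 83.3) for miR-133b. The last of these intervals lies apart from the other three, and miR-133b-5p alone held 66.8% (60.2 to 73.0) of the miR-133 5p reads. In NCC, all 18 miR-206 reads (81.5 to 100%) and all 64 miR-133a reads were on the 3p arm, whereas the 1 miR-133b read was on the 5p arm. The 3p counts of miR-206 and miR-133a are even in every library and their 5p counts are not, whereas miR-133b and miR-133c have 1 precursor gene each. The arm shares were not recomputed with these 3p reads halved, which would lower those of miR-206 and miR-133a in non-NCC. The miR-133a share also leaves out a further row, miR-133a-2-5p, with 18 non-NCC reads at 16 hpf. Counting them would lower it too.

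Read against all miRNAs at 16 hpf, 3 of the 9 rows had reads in both libraries. Of these, miR-133a-3p was over 2-fold higher in NCC, where 26.7% of all miRNAs with reads in both were. miR-206-3p and miR-133b-5p were over 2-fold higher in non-NCC, where 25.3% were. Reads in non-NCC but none in NCC were found for 6 of the 9 rows and for 33.6% of all miRNAs with non-NCC reads. Adjusted p-values under 0.05 (exact binomial test) were obtained for 4 of the 9 rows, against 32.6% of all miRNAs tested. The calls among the members are few, and their shares in each direction rest on 3 rows.

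**Figure D3:**
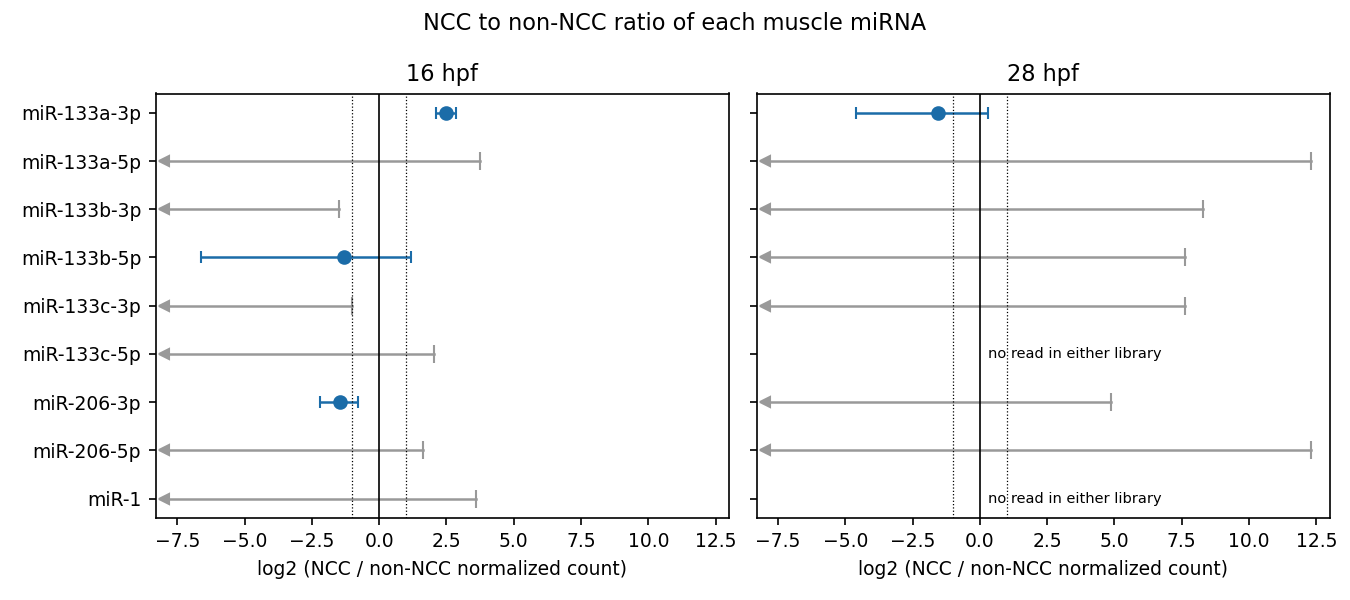
Log2 ratio of NCC to non-NCC normalized counts of each muscle miRNA at 16 hpf (left) and 28 hpf (right), with 95% intervals (blue); grey lines with an arrow run up to the upper end of the interval of rows without an NCC read, and dotted lines mark 2-fold. At 16 hpf miR-133a-3p lies at 2.50 and miR-206-3p at -1.44 with intervals clear of 0, and at 28 hpf each of the 7 intervals drawn includes 0.

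At 28 hpf, the muscle reads of non-NCC were nearly all miR-133a-3p, and the NCC library was too shallow to show any other member. miR-133a-3p had 2 NCC reads (22.8 normalized counts, 308 RPM, interval 37.3 to 1110.7) and 758 non-NCC reads (66.5 normalized counts, 690 RPM, 641 to 740). The log2 ratio of -1.54 (-4.59 to 0.31) included 0 (exact binomial test, adjusted p = 0.910). It was also the row with an NCC read and over 2-fold higher in non-NCC, 1 of 1, beside 34.7% of all miRNAs with reads in both libraries in that direction and 24.5% in the other. With the reads halved, the NCC value rests on 1 read.

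The other members had few reads in non-NCC at 28 hpf: 18 of miR-206-3p (16.4 RPM), 4 each of miR-133b-5p and miR-133c-3p (3.64 RPM), 3 of miR-133b-3p (2.73 RPM) and 1 each of miR-206-5p and miR-133a-5p. miR-1 and miR-133c-5p had none in either library. At an equal level, miR-206-3p would have given 0.138 NCC reads, the highest of these expected numbers, so that a lower level in NCC was not detectable at this depth. No NCC read was found for 6 of the 7 members with non-NCC reads, and for 79.3% of all such miRNAs. Adjusted p-values under 0.05 (exact binomial test) were obtained for 0 of the 7, against 7.95% of all miRNAs tested, and unadjusted ones also for 0 of the 7.

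The ratio of NCC to non-NCC changed between the stages for miR-133a-3p, the member with NCC reads at both. It was lower at 28 hpf by 4.04 on the log2 scale (log2 change -4.04, -7.12 to -2.12; exact conditional test on the 4 counts, adjusted over 187 miRNAs, p = 2.95e-08). With the reads of each member divided by its precursor genes, the exact conditional test gave an adjusted p of 0.000388. By this test, 1 of the 3 members that could be tested had a lower ratio at 28 hpf, beside 9.09% of all miRNAs. For miR-206-3p and miR-133b-5p, without NCC reads at 28 hpf, the depth allowed no statement (exact conditional test, adjusted p = 1 for both). Summed over the paralogs, the change of miR-133 3p was -2.69 (-5.77 to -0.77), and with the miR-133a-3p reads halved -2.02 (-7.37 to 0.58), an interval that includes 0.

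The change came with a rise of miR-133a-3p in the non-NCC library. Its share there went from 4.81 RPM (4.45 to 5.19) at 16 hpf to 690 RPM (641 to 740) at 28 hpf, which is 143.4-fold (log2 7.16, 7.01 to 7.32). Of the 236 miRNAs with reads in non-NCC at both stages, it had the 2nd highest increase, and it moved from the 104th to the 25th most abundant miRNA. The median of these 236 miRNAs rose 3.90-fold in share while miR-430 fell. A miRNA rare at 16 hpf was among them only if the shallower library at 28 hpf held a read, which favours rises. With miR-430 left out of the library totals, miR-133a-3p rose 35.5-fold (log2 5.15, 4.999 to 5.303), and the median miRNA 1.02-fold. In NCC, the share went from 27.3 RPM (21.1 to 34.9) to 308 RPM from 2 reads, 11.3-fold (log2 3.49, 0.42 to 5.40). Without miR-430 it rose 3.32-fold, with an interval that includes 0 (log2 1.73, -1.35 to 3.64). Both intervals take the 2 reads as independent. With the reads halved, the NCC value at 28 hpf rests on 1 read, and these intervals were not recomputed.

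The other members did not share this rise. miR-206-3p had 20.8 RPM (20.05 to 21.56) in non-NCC at 16 hpf and 16.4 RPM (9.70 to 25.9) at 28 hpf (log2 change -0.34, -1.10 to 0.32). With miR-430 left out, it was 5.13-fold lower at 28 hpf (log2 -2.36, -3.11 to -1.69). miR-133b-3p had 4.41 RPM (4.07 to 4.77) and 2.73 RPM (0.563 to 7.98), and miR-133c-3p 3.18 RPM (2.89 to 3.48) and 3.64 RPM (0.991 to 9.32). Their log2 changes of -0.69 (-2.97 to 0.86) and 0.20 (-1.69 to 1.56) do not overlap with that of miR-133a-3p, and with miR-430 left out they were -2.71 (-4.99 to -1.15) and -1.82 (-3.70 to -0.45). Over 2-fold higher shares at 28 hpf were seen for 3 of the 7 members with reads at both stages, beside 73.7% of all such miRNAs, and over 2-fold lower shares for 0 of 7, beside 3.81%. Besides miR-133a-3p, the 3 were miR-133b-5p and miR-133a-5p, from 4 and 1 reads at 28 hpf, with intervals that include no change. To be counted, a row needed a read at 28 hpf, where 1 read is 0.910 RPM, against 0.00714 RPM at 16 hpf. Rows rarer than 0.910 RPM at 16 hpf, such as miR-133a-5p and miR-206-5p, could thus enter only with a higher share. This favours rises among the members and among all miRNAs. The counts also depended on miR-430, and the need for a read at 28 hpf holds without it too. With miR-430 left out of the totals, 1 of the 7 members (miR-133a-3p) was over 2-fold higher at 28 hpf, beside 31.6% of 231 miRNAs, and 4 (miR-206-3p, miR-206-5p, miR-133b-3p and miR-133c-3p) were over 2-fold lower, beside 25.1%.

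**Figure D4:**
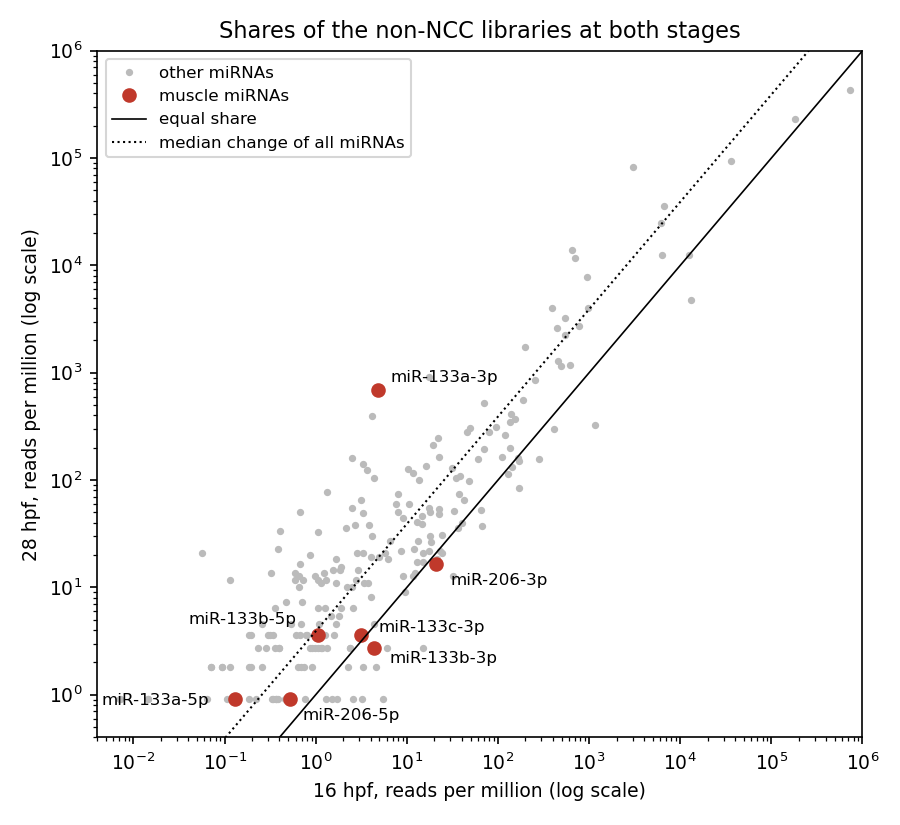
RPM values of the 236 miRNAs with reads in the non-NCC libraries at the early stage (16 hpf, horizontal) and the late stage (28 hpf, vertical), both on log scales; red points are muscle miRNAs, the solid line marks an equal share and the dotted line the median change of 3.90-fold. miR-133a-3p lies far above both lines, at 4.81 and 690 RPM, and miR-206-3p, miR-133b-3p and miR-133c-3p lie near the line of equal shares.

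The paralog mix of non-NCC also differed between the stages. miR-133a-3p held 38.8% of the miR-133 3p reads at 16 hpf and 99.1% (98.1 to 99.6) of 765 at 28 hpf. With its reads halved, the shares were 24.1% and 98.2% (96.3 to 99.3). Over all 9 rows, miR-206-3p fell from 58.7% to 2.28% (1.36 to 3.58) of the reads and miR-133a-3p rose from 13.6% to 96.1% (94.5 to 97.3). The part of read assignment among paralogs in this shift was not tested. The shares of all 9 rows were not recomputed with the reads divided by precursor genes.

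The members encoded in one pair were also set beside each other. miR-133b-3p and miR-133c-3p, whose genes each lie beside a mir206 gene, together had 1063 reads beside 2914 of miR-206-3p in non-NCC at 16 hpf, and 7 beside 18 at 28 hpf. They made up 26.7% (25.4 to 28.1) and 28.0% (12.1 to 49.4) of the reads of these 3 rows, respectively, so the proportion was alike at both stages within its wide interval at 28 hpf. In NCC at 16 hpf they held 0 of 18 such reads, which allows up to 18.5%. With the miR-206-3p reads halved, they held 0 of 9 in NCC (up to 33.6%) against 42.2% (40.2 to 44.1) in non-NCC. miR-133a-3p and miR-1, which share the other pairs, were not alike: miR-1 had 20 reads beside 674 in non-NCC at 16 hpf, or 2.88% (1.77 to 4.42) of both, and 0 beside 758 at 28 hpf, which allows up to 0.485%. The rise of miR-133a-3p in non-NCC was thus seen without reads of miR-1.

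Few other muscle miRNAs were measured. miR-499, which is encoded in myosin heavy chain genes, and miR-736 make up 3 rows of the tables, and 0 of the 3 had a read in NCC at 16 hpf. In non-NCC, miR-499-5p had 47 reads, miR-499-3p 42 and miR-736 25. At an equal level, the 3 rows together would have given 1.91 NCC reads, so that a lower level in NCC was not detectable. The interval of their summed log2 ratio reached up to 0.97, below the 2.50 of miR-133a-3p. At 28 hpf, miR-499-3p had 4 non-NCC reads and the others none. The smooth muscle miRNAs miR-143 and miR-145, 3 rows, had 2 NCC and 103 non-NCC reads at 16 hpf (log2 ratio 0.21, -2.85 to 2.10). The NCC excess of miR-133a-3p at 16 hpf stands beside 18 NCC reads of miR-206-3p and none of miR-133b-3p or miR-133c-3p. For the latter 2, 10.4 and 7.47 NCC reads would have been counted at an equal level. For miR-1 it was 0.336, so that its lack of NCC reads, like that of miR-499 and miR-736, does not show a lower level. The interval of the miR-1 log2 ratio reached up to 3.59, above the ratio of miR-133a-3p. The part of muscle cells among the sorted NCC in the miR-133a-3p excess was not tested.

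Profiles over the 4 libraries were compared by the distance of centred log2 RPM (0.5 reads added) among 185 miRNAs with reads in at least 3 libraries. The 3 miRNAs closest to miR-133a-3p were miR-125c-5p, miR-125b-1-3p and miR-138-5p, at 1.18, 1.27 and 1.67 log2 units. The closest to miR-206-3p were miR-196a-5p, miR-196c and miR-130b, at 0.20, 0.26 and 0.66. The closest to miR-1 were miR-128-3p, miR-722 and miR-128-3-5p, at 0.93, 1.17 and 1.35, although miR-1 itself had reads in 1 library and 0.5 added reads in the others. At 28 hpf, miR-206-3p had no NCC read either, nor had miR-196c, miR-130b, miR-128-3-5p or the 3 miRNAs closest to miR-133a-3p. Their NCC point at 28 hpf is set by the 0.5 added reads alone, whereas miR-196a-5p had 4 NCC reads. The NCC point at 28 hpf rests on at most 4 reads for each of these miRNAs, and the distances describe these 4 libraries only.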

How the data were processed

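Small RNA of sorted NCC and non-NCC cells at 16 and 28 hpf was sequenced in 4 libraries, 1 per group. The authors aligned reads with Bowtie (processing notes: GRCz11), counted miRNAs with HTSeq and used DESeq2. Versions and the handling of reads with several alignments are not given in the sources used here. The deposited values are a signal, the count divided by a size factor, with the 2 libraries of a stage normalized together. Whole reads were recovered by division by the smallest nonzero value of each column (100% whole within 0.0001).

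Ratios of NCC to non-NCC, their 95% Clopper-Pearson intervals and all tests were computed from these reads. Exact binomial tests were adjusted (Benjamini-Hochberg) over 340 miRNAs at 16 hpf and 239 at 28 hpf. Exact conditional tests of the change between stages were adjusted over 187 miRNAs. The calculations were tried on simulated independent reads with known size factors. That simulation held no PCR copies and no counts doubled over precursor genes, so it checks the calculation only. Tests were two-sided. Without replicates they compare libraries, not populations. A miRNA over 2-fold had values above 0 in both libraries, as in the study. The members and lists were chosen with earlier results of these data known. All 9 members are named, besides muscle miRNA lists and the 3 closest profiles. Alternatives were scaling to totals with and without miR-430, edgeR's TMM factors, 2 pseudocounts, a 4-fold limit and a minimum of 10 reads. Others were the test as a criterion, summed paralogs and division of the members' reads by precursor genes. Gene names and neighbours come from the GRCz12tu RefSeq table, which matched all 9 rows. Mature sequences were not used here. Python 3.11.15, numpy 2.4.6, pandas 2.3.3, scipy 1.17.1, matplotlib 3.10.9, R 4.3.3 and edgeR 4.0.16 were used.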

Additional observations from a re-analysis of the deposited data

Results flagged for a closer look

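The NCC to non-NCC ratio of miR-133a-3p differed between the stages by a test of the difference itself, with a log2 change of -4.04 from 16 to 28 hpf (exact conditional test, adjusted p = 2.95e-08). It was higher in NCC at 16 hpf (64 and 674 reads) and had 2 and 758 reads at 28 hpf. With the reads of each member divided by its precursor genes, the exact conditional test gave an adjusted p of 0.000388. Each stage is 1 pair of libraries.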

How the results depend on the processing

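Of 111 recomputed values of 25 results, 92 kept their direction and call, stayed within the interval or, for numbers of members, stayed as reported. Of the called results, 0 turned direction. Summing the miR-133 3p paralogs took the log2 ratio of miR-133a-3p at 16 hpf from 2.50 to 1.13, and division by precursor genes took that sum to 0.45. With both, a choice made after seeing the data, the stage change was -2.02, with an interval that includes 0. The number of members over 2-fold in non-NCC at 16 hpf was 2 as reported, 0 with a 4-fold limit, 1 with at least 10 reads in each library or the exact binomial test required, 8 with the pseudocount of the paper and 4 with 0.5 reads added. At 28 hpf it was 1 as reported, 7 with the pseudocount of the paper, and 0 with a 4-fold limit, at least 10 reads, the exact test required or scaling to totals without miR-430. With 0.5 reads added, 6 members instead of 0 were over 2-fold in NCC at 28 hpf, each without an NCC read. Leaving miR-430 out took the log2 share change in non-NCC to 5.15 for miR-133a-3p, -2.36 for miR-206-3p, -1.82 for miR-133c-3p (from 0.20) and -0.24 for miR-133b-5p (from 1.77). Halving the miR-133a-3p reads took its share of miR-133 3p reads in non-NCC at 16 hpf to 24.1%. No paired analysis was possible because each group is 1 library, and for the same reason no replicate could be left out. Depth limits all statements on NCC at 28 hpf, where 1 read is 154 RPM.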

Other observations

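Markers of other cell types differed between the sorted libraries at 16 hpf as well. The endothelial miRNA miR-126 (4 rows) had 14 NCC and 3489 non-NCC reads (log2 ratio -2.06, -2.94 to -1.32). miR-126a-3p held 10 and 2424 of them, and was the 1 row with NCC reads over 2-fold lower in NCC. miR-126a-5p (-0.85) and miR-126b-5p (-0.84) had intervals that include 0, and miR-126b-3p had 0 and 636 reads. The neural miRNAs miR-9 and miR-124 (8 rows) had 457 and 59554 (log2 ratio -1.13, -1.265 to -0.996). Of these, miR-9-5p alone held 427 and 55016, so that the sum describes mainly this row. Among the 7 neural rows with NCC reads, 2 were over 2-fold higher in NCC and 3 over 2-fold higher in non-NCC. Of all miRNAs with reads in both libraries, 26.7% and 25.3% were. The erythroid miRNAs went opposite ways. miR-451 was higher in NCC (43 and 304 reads, log2 ratio 3.08, 2.58 to 3.54), and miR-144-5p was lower (2 and 5280 reads, log2 ratio -5.47, -8.52 to -3.62), so that their sum describes neither. Of the epidermal miRNAs miR-200, miR-203 and miR-205 (12 rows), miR-205-5p held 1071 of 1118 NCC reads and had a log2 ratio of 0.00 (-0.09 to 0.08). Among the 7 epidermal rows with NCC reads, 4 were over 2-fold lower in NCC and 0 over 2-fold higher. The 4 were miR-203a-3p (-2.55), miR-203b-3p (-2.42), miR-200b-3p (-2.34) and miR-200a-3p (-2.13). miR-200a-5p (-0.13, -0.92 to 0.56) and miR-200c-3p (0.90, -2.18 to 2.81) had intervals that include 0. miR-204, known from pigment cells and the eye (4 rows), was higher in NCC (2489 and 27999 reads, log2 ratio 2.41, 2.35 to 2.46). The miR-206-3p ratio of -1.44 lies between those of the endothelial sum, mainly miR-126a-3p, and the neural sum, mainly miR-9-5p. The miR-133a-3p ratio of 2.50 lies between those of miR-204 and miR-451, whose erythroid partner miR-144-5p lies at -5.47. These positions among a few chosen miRNAs assign neither member to a cell type. The part of other cell types in the muscle miRNA ratios was not tested.

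The tables also hold a row miR-133a-2-5p, outside the 9 rows. It has the same reads as miR-133a-5p in all 4 libraries (0, 18, 0 and 1), as does the unrelated miR-212. miR-1 likewise has the same reads as the unrelated miR-129-5p (0, 20, 0 and 0).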
